A study of Trichechus manatus latirostris with 11 samples.

Results

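The genes described here encode the enzymes of glycolysis, the enzymes that control what becomes of pyruvate, and the oxygen-sensing pathway of the hypoxia-inducible factors (HIF) with a set of its known response genes. They were chosen by name, from a list of 46 gene symbols. Of these, 34 had at least 1 row in the deposited table through their RefSeq symbol, with 36 rows in all among 15298 rows. BNIP3L and P4HA1 had 2 transcript records each, and the record with the higher overall mean stood for the gene. The other 12 genes (HK3, PFKM, ALDOC, PKM, PDHA1, HIF1A, EPAS1, ARNT, VEGFA, ADM, ANKRD37 and P4HA2) were matched to no row and were not analysed here, so the HIF transcription factors themselves are missing from what follows.

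RNA had been sequenced from buffy coats, the layer of white blood cells and platelets between plasma and red cells in centrifuged blood, of 11 adult Florida manatees. The red tide group comprised 4 animals taken to a zoo for treatment of red tide illness. By the study's account, 2 of them were sampled on arrival and 2 after a week of treatment. The control group comprised 7 animals. Crystal River gave 4, the Indian River Lagoon in Brevard County 2, and 1 was recovering from pneumonia at the same zoo. The study's methods describe the red tide buffy coats as frozen at once and archived, and also describe storage in RNAlater, a preservative, for each animal. Group, place and time of sampling, medical treatment and any difference in storage cannot be told apart. Every animal gave a single library.

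The deposited values were mean normalized counts, that is counts divided by a size factor for each library, over 4 libraries and over 7 libraries. The columns do not name their groups. The stored title names the red tide group first and the other 7 second. The numbers of libraries are those of the red tide group and of the control group, in that order. The means are called the 4-library mean and the 7-library mean below. The study's text, however, names MMP9, CXCR1 and CXCR2 as upregulated in red tide manatees, whereas in the table the 4-library mean of these genes is the lower one. For these genes the 7-library mean divided by the 4-library mean is 9.97, 8.71 and 9.15, the same sizes as the study's folds. The sources used here do not settle this conflict, so every higher or lower below refers to the 4-library and the 7-library mean, and the direction relative to red tide is uncertain throughout. Reads of single libraries were recovered from low means, because such a mean can be made from whole reads in a single way only. The 4 libraries had size factors of 1.56, 1.03, 0.620 and 0.372 and are named by them; the 7 libraries had size factors of 0.702 to 1.73. Total counts per library were not known, and which animal gave which library was not known either. Values of the 4 libraries are listed in this order. A difference is given as a log2 ratio, the 4-library mean divided by the 7-library mean, and 2-fold was taken as the mark for a large one, since a pair of means carries no replicate error and allows no test. Where the reads of the 4 libraries of a member were recovered, they or their values are given, for some genes with an SD. Reads of the 7 libraries were recovered for LDHA, PFKFB1 and PFKFB4 alone among the members. For every other member the spread of the 7 libraries is unknown, and values of the 4 on 1 side of the 7-library mean do not show that the groups separate.

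Glycolysis splits glucose into pyruvate and yields ATP without oxygen. Its committed step, made by phosphofructokinase, is switched on by a sugar phosphate that the bifunctional PFKFB enzymes make and break down. Pyruvate is then reduced to lactate by lactate dehydrogenase or enters the mitochondrion through the pyruvate dehydrogenase complex, which the PDK kinases switch off. When oxygen is plentiful, the EGLN prolyl hydroxylases mark HIF alpha subunits for the ubiquitin ligase VHL. When oxygen is scarce the subunits persist and raise the transcription of many glycolytic genes. Neutrophils draw most of their ATP from glycolysis, and diving mammals meet low oxygen with every long breath hold.

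Most of these genes had similar means in the groups. Ratios could be formed for 33 of the 34 genes, and 27 of them lay within 2-fold. PFKFB3 and LDHA were the 2 genes at least 2-fold higher in the 4-library mean, which is 6.06% of the 33, while over all rows 23.9% were. CA12, TPI1, PDK4 and PDK3 were the 4 genes at least 2-fold lower, which is 12.1%, against 10.4% of all rows. Rows with few reads held many of the large ratios of the table. Among the 10225 rows with an overall mean of at least 10, 12.3% were at least 2-fold higher and 9.59% at least 2-fold lower in the 4-library mean, and in the 31 member genes with such a mean the counts were 1 and 4. The 4-library mean was the lower one for 22 of the 33 genes. Their median log2 ratio was -0.18, and that of all rows was 0.14, or -0.01 over rows with a mean of at least 10.

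**Figure D1:**
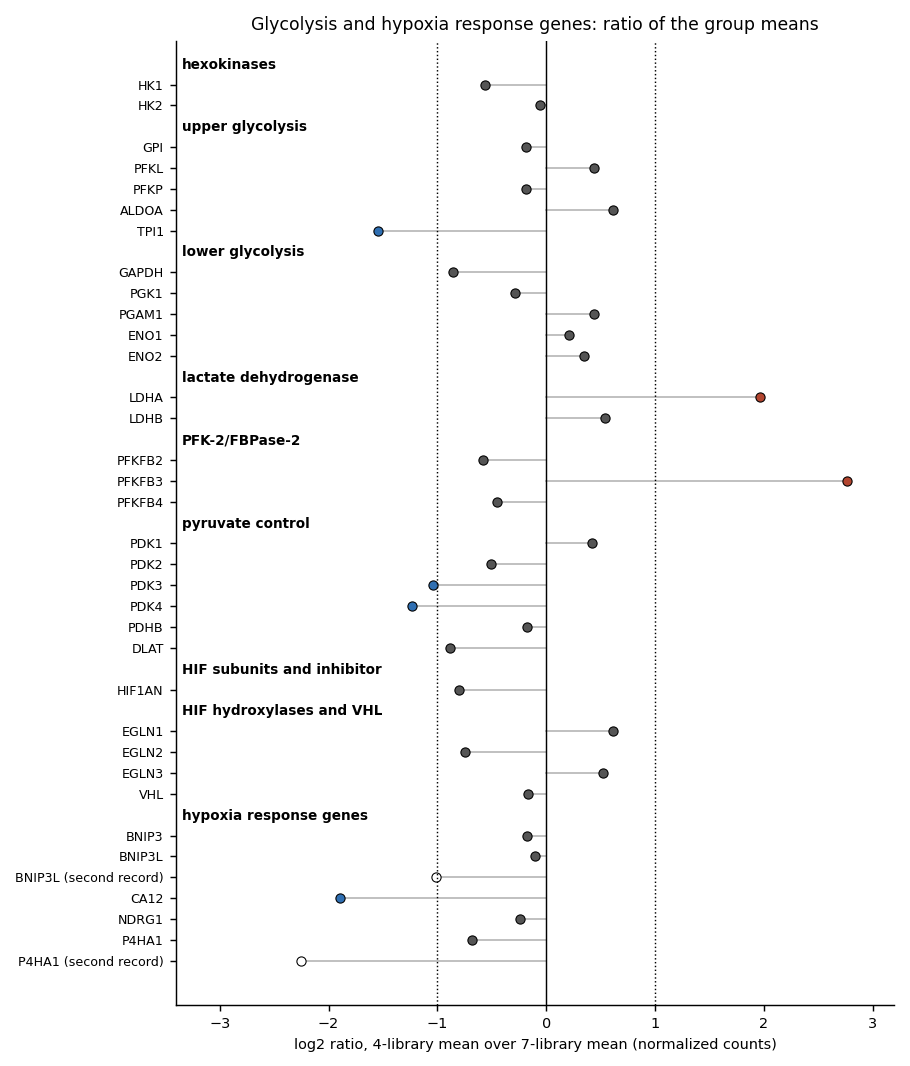
Log2 ratio (4-library divided by 7-library mean normalized count) for the 33 genes with a ratio, grouped by role, with the dotted lines at 2-fold and open circles for second transcript records. PFKFB3 (2.76) and LDHA (1.96) stand to the right of the lines, and CA12 (-1.90), TPI1 (-1.54), PDK4 (-1.24) and PDK3 (-1.04) to the left.

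Among the 4 PFKFB genes, PFKFB3 differed from its paralogs. PFKFB3 (XM_004379711.1) encodes the family member with the highest kinase over phosphatase activity, which favours glycolysis. From 60, 57, 58 and 40 reads, it had normalized counts of 38.5, 55.5, 93.5 and 108. Every one of these values was at least 3.55 times the 7-library mean of 10.9. The 4-library mean was 73.8 ± 32.2 (SD, n = 4), 6.80-fold above the 7-library mean. The 7 single values behind that mean were not recovered, but they sum to 76.0, so at most 1 of the 7 libraries can have reached the lowest of the 4. Without the library of size factor 0.372 the fold was 5.76.

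PFKFB2, the paralog known from heart and regulated by phosphorylation, had the opposite sign. Its values in the 4 libraries (XM_004375196.1) were 62.2, 46.7, 91.9 and 24.2, a mean of 56.3 ± 28.4 (SD, n = 4) against a 7-library mean of 84.1. The library of size factor 0.620 lay above the 7-library mean and the others below it, and the log2 ratio was -0.58. PFKFB4 (XM_004368498.1), a paralog known from testis and as a hypoxia response gene, had 3, 1, 4 and 0 reads in the 4 libraries. In the 7 libraries it had between 1 and 7 reads, and normalized counts of 0.853 to 4.52 with a median of 3.62. The means were 2.34 ± 2.85 (SD, n = 4) and 3.19 ± 1.24 (SD, n = 7). An exact two-sided permutation test over the 330 ways to choose 4 of 11 libraries detected no difference (p = 0.506). After Benjamini-Hochberg adjustment over 4429 rows the p of that test was 0.758. With 8 reads in the 4 libraries and 28 in the 7, the test could have missed a difference. PFKFB4 depended on the library of size factor 0.620, the highest of the 4 at 6.45. Without it the 4-library mean was 3.30-fold lower, with p = 0.0333 in the exact permutation test and 0.368 after adjustment. With single libraries left out in turn, the p of that test ran from this value up to 0.95. Removal of the highest value lowers the 4-library mean by itself, so no conclusion is drawn from that p. PFKFB1 (XM_004389135.1), the liver and muscle form, was near absence in both groups, with 2 reads in 1 of the 4 libraries and 3 reads in 2 of the 7, and no ratio is given.

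**Figure D2:**
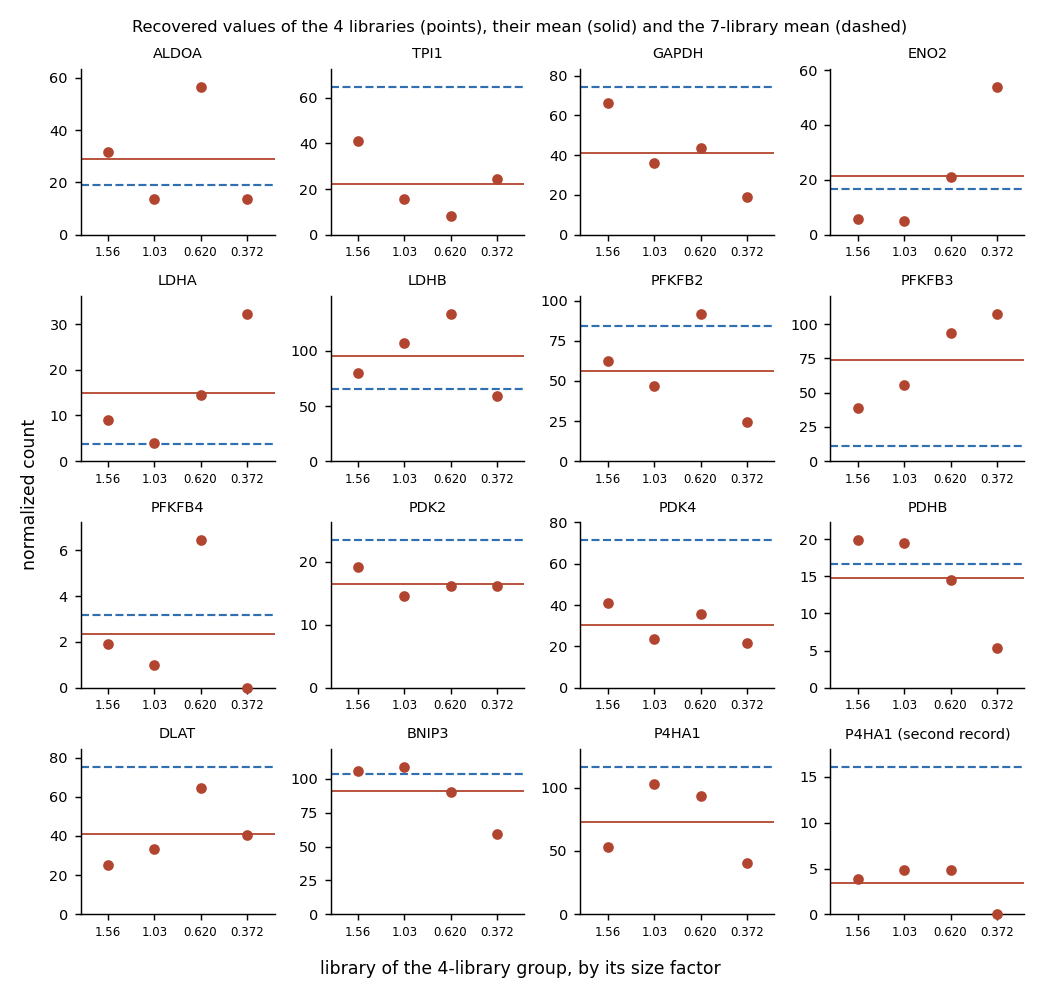
Normalized counts of the 4 libraries for the 16 member rows with more than 3 recovered reads, ordered by falling size factor, with the 4-library mean as a solid and the 7-library mean as a dashed line; each panel starts at 0 and has its own scale. All 4 points of PFKFB3 and LDHA lie above the dashed line, the lowest of LDHA only just (3.89 against 3.83). All 4 points of TPI1, GAPDH, PDK2, PDK4, DLAT and each record of P4HA1 lie below it. The share of all recovered rows with 4 points on the same side was not counted.

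The lactate dehydrogenase subunits were both higher in the 4-library mean. LDHA (XM_004369694.1) encodes the subunit that favours the making of lactate and is a textbook HIF target. It rested on few reads: 14, 4, 9 and 12 in the 4 libraries and 1 to 17 in each of the 7. The normalized counts were 8.98, 3.89, 14.5 and 32.3 in the 4 libraries, and 1.42 to 9.82 with a median of 3.27 in the 7. The groups overlapped, since 1 of the 7 libraries, at 9.82, exceeded 2 of the 4; of the 4429 rows with reads of all 11 libraries, the 4 lay wholly above the 7 in 2.8% and wholly below in 0.0677%. The means were 14.9 ± 12.4 (SD, n = 4) and 3.83 ± 2.75 (SD, n = 7), a fold of 3.90, and without the library of size factor 0.372 the fold was 2.39. The exact two-sided permutation test gave p = 0.0182 for LDHA, with 0.172 after Benjamini-Hochberg adjustment over those rows. That test gave an unadjusted p under 0.05 in 947 (21.4%) of those rows and an adjusted p under 0.05 in 0. Rows enter it with a 4-library mean of up to 80 but a 7-library mean of up to 6, which favours rows that are higher in the 4 libraries, and the smallest p that 4 against 7 libraries allow is 0.00303. LDHB (XM_004390632.1), the subunit that favours the return from lactate to pyruvate, had values of 79.5, 107, 134 and 59.2 in the 4 libraries. Of these, 3 lay above the 7-library mean of 65.3, and the log2 ratio was 0.54.

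**Figure D3:**
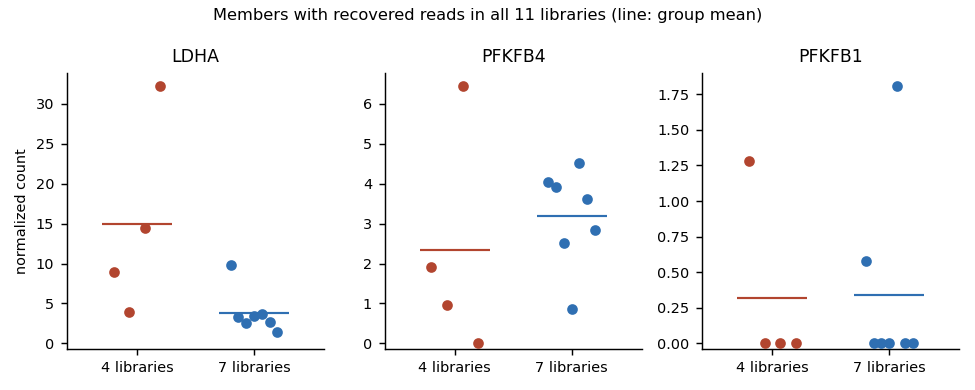
Normalized counts in the 4 and in the 7 libraries for the 3 member genes whose reads were recovered in all 11, with a line at each group mean. In LDHA, 1 of the 7 libraries lies inside the range of the 4, in PFKFB4 the groups overlap, and PFKFB1 is at 0 in 8 of the 11 libraries.

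The first enzymes of the pathway lay close together in the groups. Hexokinases trap glucose in the cell as its phosphate. HK2, the inducible form, had means of 718 in the 4 libraries and 747 in the 7, a log2 ratio of -0.06. HK1, the form found in most tissues, had means of 1221 and 1801, a log2 ratio of -0.56. The isomerase GPI (823 and 934) and the platelet type phosphofructokinase PFKP (360 and 410) had log2 ratios of -0.18 each. PFKL, the liver type phosphofructokinase that is also the main form of neutrophils, was at 533 and 392, a log2 ratio of 0.44. For these genes only the means are known, and whether the libraries overlap cannot be said.

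TPI1 and ALDOA, which act after phosphofructokinase, had opposite signs. TPI1 (XM_004387230.1), which interconverts the triose phosphates, had normalized counts of 41.1, 15.6, 8.06 and 24.2 in the 4 libraries. All of them lay below the 7-library mean of 64.7, and 3 of them were more than 2-fold below it. The 7 single values behind that mean were not recovered, so overlap of the groups cannot be judged. The 4-library mean was 22.2 ± 14.2 (SD, n = 4), 2.91-fold lower, and 4.06-fold lower without the library of size factor 1.56. ALDOA (XM_004386632.1), the aldolase of muscle and blood cells, had values of 31.4, 13.6, 56.4 and 13.5 against a 7-library mean of 18.8, with 2 of the 4 above that mean and 2 below. Without the library of size factor 0.620 its log2 ratio moved from 0.61 to 0.05.

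In the second part of glycolysis, where ATP is gained, all 5 genes with a row lay within 2-fold. GAPDH (XM_004387206.1), which oxidizes the triose phosphate, had values of 66.1, 36.0, 43.5 and 18.8 in the 4 libraries. Each was below the 7-library mean of 74.2, and the log2 ratio was -0.85, or -1.18 without the library of size factor 1.56. Whether any of the 7 libraries was as low is not known, since their reads were not recovered. The means of PGK1, the first ATP-forming enzyme, were 1095 and 1336, and those of the mutase PGAM1 were 687 and 506. The enolase ENO1, present in most cells, had means of 6702 and 5803, a log2 ratio of 0.21. ENO2, the enolase known from neurons and platelets, was carried by 1 library. Its values (XM_004387233.1) were 5.77, 4.87, 21.0 and 53.8, the last being the library with the smallest size factor (0.372), and its removal turned the log2 ratio from 0.34 to -0.68. The rows of GAPDH, TPI1, ALDOA and LDHA held between 39 and 174 reads over the 4 libraries together. Glycolytic genes have near-identical copies in many mammalian genomes, and whether reads were lost to such copies here was not tested.

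Of the genes that govern the entry of pyruvate into the mitochondrion, 5 of 6 had the lower mean in the 4 libraries. PDHB is among the 5 with nearly equal means (log2 ratio -0.17). The median log2 ratio of all rows with a mean of at least 10 was -0.01, so lower means are common and nothing is read from this count. The PDK kinases differed among themselves. PDK4 (XM_004386135.1), known to be induced by fasting and glucocorticoids, had values of 41.1, 23.4, 35.5 and 21.5 in the 4 libraries, all below the 7-library mean of 71.4 and 3 of them at least 2-fold below it. The 4-library mean was 30.3 ± 9.44 (SD, n = 4), 2.35-fold lower, and leaving out any 1 of the 4 kept the log2 ratio between -1.42 and -1.10. For PDK4 the values of the 7 libraries were not recovered, so overlap with the 4 cannot be judged. PDK3 had means of 212 and 437, 2.06-fold lower and just past the mark, and its single libraries were not recovered.

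PDK1, the family member known as a HIF target, had the opposite sign, with means of 1383 and 1036 and a log2 ratio of 0.42. PDK2 (XM_004377946.1), found in most tissues, was even across the 4 libraries at 19.2, 14.6, 16.1 and 16.1. All of these lay below the 7-library mean of 23.4, and the 4-library mean was 16.5 ± 1.95 (SD, n = 4). The complex itself was represented by the subunits PDHB and DLAT. PDHB (XM_004368648.1) had values of 19.9, 19.5, 14.5 and 5.38 around a 7-library mean of 16.7, and the sign of its log2 ratio (-0.17) changed to 0.10 when the library with the smallest size factor was left out. DLAT (XM_004382504.1) had values of 25.0, 33.1, 64.5 and 40.4, each below the 7-library mean of 75.4, and a log2 ratio of -0.89. For PDK2, PDHB and DLAT the 7 single values were not recovered, so overlap of the groups cannot be judged.

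The oxygen-sensing hydroxylases and VHL showed no common direction, and none of these 5 genes was past 2-fold. EGLN1, the main prolyl hydroxylase of HIF alpha in most cells, had means of 1096 in the 4 libraries and 716 in the 7, a log2 ratio of 0.61. EGLN3, a hydroxylase that is itself a HIF target and is known from neutrophils, had means of 135 and 94.4, a log2 ratio of 0.52. EGLN2 was lower, with means of 367 and 614 and a log2 ratio of -0.74. HIF1AN, the asparaginyl hydroxylase that blocks binding of coactivators to HIF, had means of 176 and 308, a log2 ratio of -0.81. VHL had means of 254 and 286. Reads of single libraries were not recovered for these genes, so none of these differences can be set against a spread.

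The 5 response genes with a row were all lower in the 4-library mean, 1 of them by more than 2-fold. BNIP3, BNIP3L (main record) and NDRG1 were lower by little, with log2 ratios of -0.18, -0.11 and -0.24. The median log2 ratio of all rows with a mean of at least 10 was -0.01, and nothing is read from the shared sign. CA12 (XM_004374643.1) encodes a carbonic anhydrase of the cell surface. Its means were 92.0 and 343, 3.73-fold lower in the 4 libraries. There were 2 combinations of whole reads that fitted the 4-library mean; in both of them the highest of the 4 libraries was at most 218, below the 7-library mean. BNIP3 and BNIP3L encode receptors for the removal of mitochondria by autophagy. BNIP3 (XM_004374938.1) had values of 106, 109, 90.3 and 59.2 around a 7-library mean of 103, with 2 above and 2 below. BNIP3L (XM_004382168.1) had means of 616 and 663, while its second record (XM_004382169.1) had means of 177 and 357, a log2 ratio of -1.01. NDRG1, a stress-induced gene of differentiation, had means of 203 and 240.

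P4HA1 encodes the catalytic subunit of collagen prolyl hydroxylase and its records also differed. The main record (XM_004383241.1) had values of 53.2, 103, 93.5 and 40.4, all below the 7-library mean of 117, and a log2 ratio of -0.68. The second record (XM_004383240.1) had 6, 5, 3 and 0 reads in the 4 libraries, all 4 at least 2-fold below its 7-library mean of 16.1, and a log2 ratio of -2.25. For each record the 7 single values were not recovered, so overlap of the groups cannot be judged. How reads shared by records of 1 gene were counted is not given in the sources used here.

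Among the 16 member rows whose 4 libraries were recovered with more than 3 reads, the library with the smallest size factor, 0.372, was the lowest of the 4 in 10 rows (62.5%) and the highest in 3 rows. In all 8561 recovered rows with a 4-library mean of at least 2 and more than 3 reads, it was the lowest in 22.8% and the highest in 36.8%. The 3 rows in which it was the highest were those of PFKFB3, LDHA and ENO2.

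**Figure D4:**
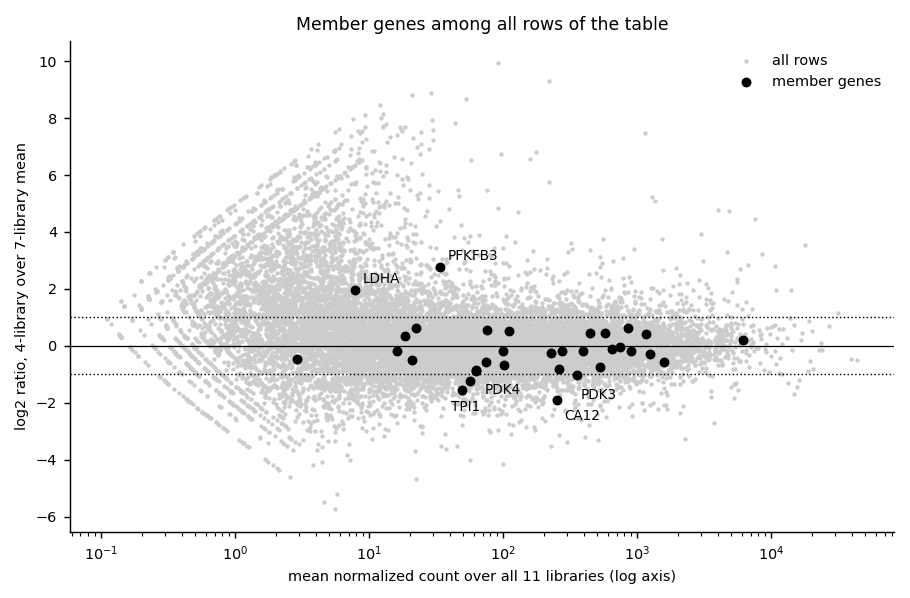
Log2 ratio (4-library divided by 7-library mean) against the mean normalized count over all 11 libraries (log axis) for all 15298 rows in grey and the 33 member genes in black, with dotted lines at 2-fold. Most member genes lie between the lines, LDHA sits at an overall mean of 7.86, where ratios of the whole table scatter widely, and PFKFB3 at 33.7.

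Other genes of the same pathways were taken from a list of 88 genes, of which 59 had a row. In the 4-library mean, 15 of the 59 were at least 2-fold higher and 9 at least 2-fold lower, where the shares over all rows were 23.9% and 10.4%. With an overall mean of at least 10 these were 6 and 6 of 44 genes, where the shares over rows of that level were 12.3% and 9.59%. Nothing particular to these lists is read from such counts. The 4-library mean was the higher one for 1 of 4 transporters and 7 of 18 branch enzymes. The share of all rows with a higher 4-library mean was not counted, so nothing is read from these counts either. SLC16A3, the lactate exporter of glycolytic cells, had values of 25.0, 21.4, 53.2 and 26.9 in the 4 libraries, all below its 7-library mean of 109.8 and 3.47-fold lower on average. ADPGK, a glucokinase that uses ADP, was 3.63-fold lower, with values of 21.2, 18.5, 19.3 and 16.1 against 68.2. The median log2 ratio of the 18 branch enzymes with a row was -0.38.

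Of the further hypoxia response genes, 14 of 21 had the higher mean in the 4 libraries, and their median log2 ratio was 0.50. The median over all rows was 0.14. Counts of higher means in this paragraph have no share over all rows beside them, and nothing is read from them. BHLHE40, a clock-linked repressor induced by hypoxia and by many other signals, had means of 1592 and 427, 3.73-fold higher. ANGPTL4, an inhibitor of lipoprotein lipase, had values of 20.5, 3.89, 121 and 43.0 in the 4 libraries. In the 7 libraries it had 0 reads in 4, and normalized counts of 2.89, 4.57 and 7.55 in the other libraries. The fold was 22.0, and 10.5 once its highest library (0.620) was left out, and the groups overlapped. The exact two-sided permutation test gave p = 0.00909 for ANGPTL4, or 0.157 after Benjamini-Hochberg adjustment over the 4429 rows. ANGPTL4 was named for its high ratio, so this p comes from the values that picked it. Entry to the test also favours rows that are higher in the 4 libraries, and 21.4% of the tested rows had an unadjusted p under 0.05. Of 11 genes of HIF pathway control, 5 had the higher mean in the 4 libraries, 3 of them by at least 2-fold (2 of these, ARNT2 and HIF3A, at overall means under 10), and the median log2 ratio was -0.25. CITED2, which competes with HIF for its coactivators, had means of 178 and 64.8, 2.75-fold higher. Of 5 genes of pyruvate entry into mitochondria, 2 were higher, 1 of them by at least 2-fold, and the median was -0.25. SLC2A1, the basal glucose transporter, and PDP1, the phosphatase that reverses the action of the PDK kinases, were picked out after their values had been seen. SLC2A1 had values of 18.0, 17.5, 74.1 and 75.3 in the 4 libraries, around a 7-library mean of 19.2. PDP1 had means of 556 and 232, 2.40-fold higher.

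**Figure D5:**
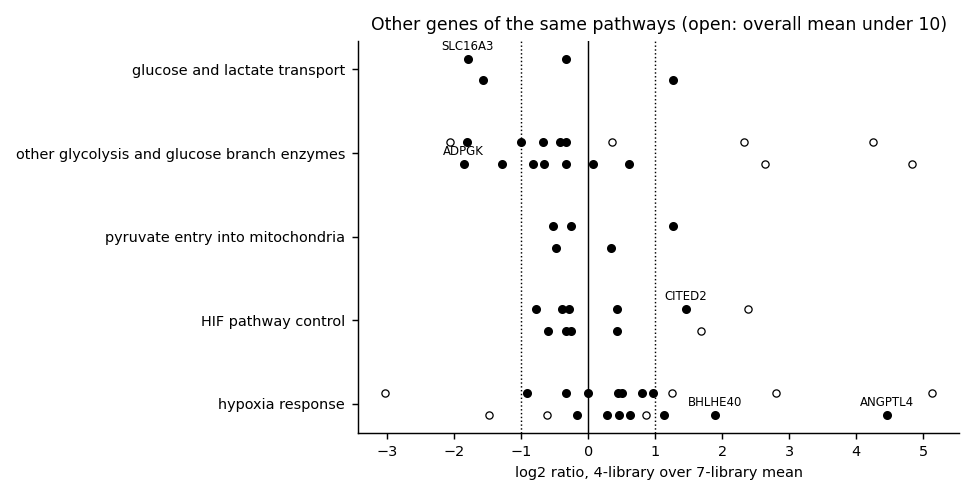
Log2 ratio (4-library divided by 7-library mean) for 59 other genes of the same pathways, 1 point a gene, with open circles for an overall mean under 10 and dotted lines at 2-fold. ADPGK and SLC16A3 stand to the left, and ANGPTL4 (4.46), BHLHE40 (1.90) and CITED2 (1.46) to the right.

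Markers of neutrophils and platelets differed between the means, while those of T cells, B cells and monocytes had similar sums. Of 9 neutrophil markers with a row, 7 were at least 2-fold lower in the 4-library mean, and the summed means were 2855 in the 4 libraries and 12948 in the 7. The other 2 were higher in the 4-library mean: FPR1, with means of 698 and 442, and MPO, which was weak in both (4.44 and 2.34). The direction of these markers relative to red tide is subject to the conflict stated above. Of 5 platelet markers, 4 were at least 2-fold higher, with summed means of 15250 and 4419. The summed means of T cell markers were 3787 and 3754 with 4 genes, those of B cell markers 809 and 853 with 4 genes, and those of monocyte markers 2426 and 2795 with 5 genes. Of 12 erythroid markers 3 had a row, with summed means of 186 and 487. No marker with a row was at 0, and others, among them FCGR3B, CD3E, CD14 and PPBP, had no row. In such bulk samples fewer cells of a type and less RNA per cell cannot be told apart, and the part of the cell types in the ratios above was not tested.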

How the data were processed

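Sample titles put 4 manatees in the red tide group and 7 in the control group; RNA came from buffy coats. The authors cleaned reads with Cutadapt, mapped them to TriManLat1.0 with Bowtie2, removed duplicates, counted uniquely mapped reads and compared groups with DESeq in the DEB tool; the sources used here do not name the counting program or annotation release. In the deposited table the signal of a transcript is its counts after division by library size factors, averaged over all 11 libraries and within 2 groups. It also holds the authors' fold changes and p-values, which were not used. The overall mean was 4 parts of the first and 7 parts of the second group mean in all 15298 rows (largest relative deviation 3.34e-09). Per-sample columns not used numbered 0.

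Symbols came from the RefSeq table of TriManLat1.0, matched by transcript record without version (10080 rows, 65.9%). Its coordinates name no chromosome and are not given.

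What 1 read of each library adds to its group mean was read from the lowest means and refined by least squares. Reads were kept where exactly 1 combination of whole reads gave the mean to within 1.2 times the rounding of its last digit. Up to a 4-library mean of 80 this succeeded in 9630 of 9634 rows, and up to a 7-library mean of 6 in 4448 of 4505. Means of 80 to 100 (510 of 525 rows), used for BNIP3 and LDHB, were added after the values were seen. In tests on simulated data every single combination found was the true one. Size factors differed by up to 4.66-fold. Counting error and the spread of animals both enter the SDs.

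The mark of 2-fold, the exact permutation test (scipy 1.17.1) on all 4429 rows with 11 recovered libraries, and the alternatives (a pseudocount of 1, centring, low means, record choice, 1.5-fold, libraries left out) were planned. Every member with a row was named, and of the other pathway genes with a mean of at least 10 the 3 most extreme each way, of which 1 is not reported here. Members and lists were chosen with earlier results of these data known.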

Additional observations from a re-analysis of the deposited data

Results flagged for a closer look

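In LDHA, the highest of the 7 libraries stood apart from the other libraries of its group. Its normalized count of 9.82, from 17 reads, was separated from the next value by 0.739 of the range of the group, above the critical value of 0.568 for 7 libraries. Of 18 sets of libraries examined this was 1, and chance flags about 1 in 20.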

How the results depend on the processing

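With the mark at 1.5-fold in place of 2-fold, 4 member genes were higher and 9 lower in the 4-library mean, and 3089 rows of the table were lower. With overall means of at least 10 alone, 1 member gene, 6 other pathway genes and 1255 rows were higher and 981 rows were lower. With 1 row a symbol, 2359 rows were higher and 914 lower. A pseudocount of 1, centring and summed records left 2 member genes higher and 4 lower. With single libraries left out, the exact permutation p lay between 0.00476 and 0.05 for LDHA (adjusted 0.106 to 0.368), between 0.0333 and 0.95 for PFKFB4, and between 0.733 and 1 for PFKFB1; none passed after adjustment. PFKFB3, LDHA, TPI1 and PDK4 stayed past 2-fold without any 1 of their recovered libraries. GAPDH, DLAT and PFKFB4 came past 2-fold without 1 of the 4 (log2 ratios of -1.18, -1.20 and -1.72), by the loss of their highest value. No paired analysis was possible because the columns carry no replicate numbers. Among the members, the spread of the 7 libraries is known for LDHA, PFKFB1 and PFKFB4 alone. This limits every statement about the other members, PFKFB3, TPI1, PDK4 and CA12 included. Genes with a 4-library mean above 100, among them HK1, PDK3 and the EGLN genes, have no known spread in either group.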
